A study of Homo sapiens with 6 samples.

Results

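Receptor tyrosine kinases carry growth factor signals across the cell membrane, and 10 of them besides EGFR were followed here in T98G cells, an established human glioblastoma line. They were MET, AXL, PDGFRA, PDGFRB, FGFR1, IGF1R, INSR, EPHA2, EPHB2 and DDR2. They were chosen by symbol as receptors known in glioblastoma, with no measured value in the rule but with earlier results of these data known. Each symbol matched 1 of the 60483 gene ids in the count tables, and all 10 had enough reads to be tested among 14732 genes. Poly(A) RNA was sequenced in 6 libraries, 2 per group. Cells labelled oeSRPK1 received full-length SRPK1 cDNA in pcDNA3.1, cells labelled shSRPK1 received a short hairpin RNA against SRPK1 in pLKO.1, and NT cells were left untreated. Transfection was transient, with a lipid reagent, and no library of cells given an empty or unrelated vector was used here, so each construct cannot be told apart from transfection itself in the comparisons with NT. SRPK1 phosphorylates splicing factors rich in serine and arginine, and the design asks what its loss or excess does to the transcripts of these cells.

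In this receptor family, ligand binding brings receptor chains together, the kinase domains phosphorylate each other on tyrosine, and the phosphotyrosines recruit adaptors that lead to RAS and MAP kinase, to PI3 kinase and AKT, and to phospholipase C gamma. Ubiquitin ligases of the CBL family, phosphatases and suppressor proteins end the signal. Glioblastomas often activate several of these receptors in the same tumour, with EGFR and PDGFRA among the receptors whose genes are amplified, and MET and AXL are studied in its invasive and mesenchymal forms. The tables hold RNA levels only, and receptor protein and phosphorylation were not measured.

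Gene reads numbered 22691215 and 3891549 in oeSRPK1, 13650909 and 10792385 in shSRPK1, and 9891606 and 13634038 in NT, so oeSRPK1 2 was the shallowest library. SRPK1 had 190.3 and 168.0 normalised CPM (read counts scaled to the library size) in oeSRPK1, 113.1 and 140.1 in shSRPK1, and 152.5 and 140.4 in NT. It did not pass in either comparison with NT (edgeR adjusted p = 0.175 for oeSRPK1 and 0.360 for shSRPK1). Of 16 alternatives, it passed against NT in 4 for oeSRPK1 and in 1 for shSRPK1, the fit without shSRPK1 2. Over the alternatives its log2 fold change from NT was 0.17 to 0.38 in oeSRPK1 and -0.37 to -0.06 in shSRPK1. Its level in oeSRPK1 was 1.42 times that in shSRPK1 (0.50 ± 0.14, edgeR adjusted p = 0.0377), a call lost in 7 of 16 alternatives, among them each removal of an oeSRPK1 or NT library (edgeR adjusted p of at most 0.308). The median absolute log2 difference between the 2 libraries of a group was 0.162 in oeSRPK1, 0.272 in shSRPK1 and 0.132 in NT, so the shSRPK1 pair stood farthest apart. Of 8 glial and neural progenitor markers, S100B, SOX2, FABP7 and AQP4 had 0 reads in every library and GFAP had 1 read in all, while SOX9 was at 265 and 244 CPM in oeSRPK1, 131 and 147 in shSRPK1, and 86.8 and 91.7 in NT. Summed CPM of the 7 leukocyte markers was 6.93 and 8.53 in oeSRPK1, 2.64 and 4.49 in shSRPK1, and 3.3 and 3.46 in NT. ITGAM made up 6.25 and 8.01 of it in oeSRPK1, 1.13 and 3.54 in shSRPK1, and 2.82 and 2.9 in NT, while PTPRC and CD3E were at 0. Summed CPM of the 7 endothelial markers was 2.88 and 2.33 in oeSRPK1, 2.34 and 1.34 in shSRPK1, and 1.55 and 1.34 in NT, with CLDN5 at 0. That of 8 mesenchymal glioblastoma markers, all with reads in every library, was 17000 and 15200 in oeSRPK1, 17800 and 15100 in shSRPK1, and 10500 and 11800 in NT. TGFBI made up 7350 and 6570 of it in oeSRPK1, 9160 and 8030 in shSRPK1, and 4350 and 5110 in NT. CHI3L1 went the other way, with 2.61 and 2.33 CPM in oeSRPK1, 8.99 and 9.47 in shSRPK1, and 10.2 and 15.2 in NT. Summed CPM of 9 skeletal muscle markers was 200 and 2390 in oeSRPK1, 1.06 and 11.6 in shSRPK1, and 0.583 and 1.13 in NT, an 11.9-fold gap within oeSRPK1. The ratio of oeSRPK1 2 to oeSRPK1 1 over the 10 receptors ran from 0.8345 (MET) to 1.5961 (PDGFRA, on 15 and 54 reads). The part of these markers in the results was not tested. Fold changes below are log2 values ± their standard error from the quasi-likelihood fit of edgeR to the 6 libraries together (n = 2 in each group). Each p was adjusted by Benjamini-Hochberg over the 14732 genes, and a call needs an adjusted p under 0.05.

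AXL, a receptor for the vitamin K-dependent proteins GAS6 and PROS1, was the most abundant of the 10 per length in every group. Levels per length are normalised CPM divided by the kilobases of merged exons (RPKM). AXL stood at 125 ± 12.8 RPKM in oeSRPK1, 69.5 ± 10.4 in shSRPK1 and 65.1 ± 3.19 in NT (SD, n = 2). In NT the order below it was PDGFRB (23.3 ± 0.701), DDR2 (20.3 ± 2.53), EPHA2 (16.1 ± 0.700), MET (12.4 ± 0.184), FGFR1 (9.28 ± 0.106), EPHB2 (3.86 ± 0.796), IGF1R (3.01 ± 0.366), INSR (1.65 ± 0.168) and PDGFRA (0.813 ± 0.205). No neighbours in that NT order overlapped between their libraries, but the place of FGFR1 below EPHA2 and MET depends on the length used. In oeSRPK1 the order was AXL, EPHA2 (52.4 ± 1.52), MET (36.3 ± 4.63), PDGFRB (17.1 ± 0.0875), DDR2 (16.6 ± 0.969), FGFR1 (11.98 ± 0.832), EPHB2 (5.54 ± 0.201), IGF1R (3.09 ± 0.0967), INSR (0.825 ± 0.0224) and PDGFRA (0.324 ± 0.105), and of its neighbours PDGFRB and DDR2 overlapped. In shSRPK1 the order was AXL, PDGFRB (36.3 ± 7.23), MET (18.9 ± 5.77), EPHA2 (14.8 ± 3.42), DDR2 (13.7 ± 9.36), FGFR1 (9.39 ± 0.909), EPHB2 (3.79 ± 0.00924), IGF1R (3.70 ± 0.336), INSR (0.729 ± 0.164) and PDGFRA (0.634 ± 0.173). There MET, EPHA2, DDR2 and FGFR1 overlapped from neighbour to neighbour, as did EPHB2 with IGF1R and INSR with PDGFRA.

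**Figure D1:**
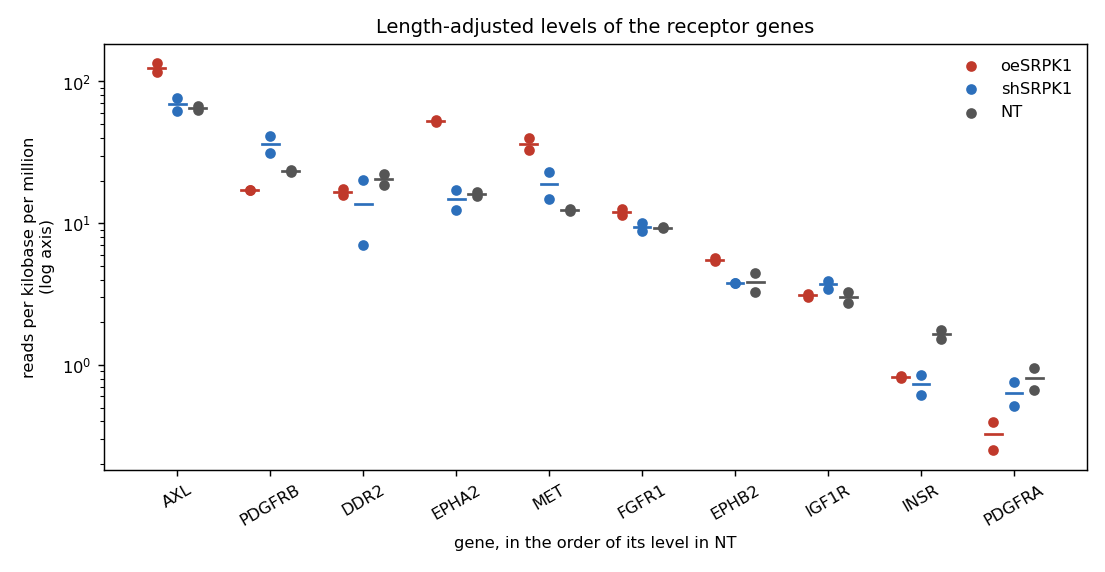
Level per length (RPKM, log axis) of the 10 receptors in oeSRPK1, shSRPK1 and NT, with a point for each library and a line at each group mean, in the order of the NT levels. AXL lies above the other 9 in each group, and PDGFRA has the lowest mean.

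The summed level of the 10 receptors was 282 and 257 RPKM in oeSRPK1, 183 and 159 in shSRPK1, and 161 and 151 in NT. AXL, MET and EPHA2 together made up 79.9% and 78.9% of that sum in oeSRPK1, 63.9% and 56.0% in shSRPK1, and 59.3% and 60.9% in NT. PDGFRB made up 6.09% and 6.64% in oeSRPK1, 22.6% and 19.6% in shSRPK1, and 14.8% and 15.2% in NT. The ratio of MET to PDGFRB per length was 2.31 and 1.94 in oeSRPK1, 0.556 and 0.476 in shSRPK1, and 0.525 and 0.537 in NT, so MET exceeded PDGFRB in the oeSRPK1 libraries and in no other. These shares and the ratio restate the levels above and are no separate result. A share also moves when other receptors in the sum change. Among 58 receptor tyrosine kinase genes, 32 were tested, and FLT3, FGFR2, EPHA6 and EPHA7 had 0 reads in all libraries. AXL had the highest mean RPKM of the 58 in each group, and EGFR ranked next to it in oeSRPK1 and in shSRPK1. This rank rests on the merged exon length, and another length was not tried for EGFR. Before division by length, EGFR had more reads than AXL in oeSRPK1 (26969 and 3704 against 15389 and 2316). The same held in shSRPK1 (6917 and 4894 against 5244 and 3346), while EGFR had fewer in NT (3131 and 4502 against 3574 and 4584).

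In oeSRPK1 against NT, 6 of the 10 receptors were called, against 20.6% of all tested genes. EPHA2, MET, AXL and EPHB2 were higher (11.2% of all tested genes were called higher) and INSR and PDGFRA were lower (9.45% were called lower). The median of the 10 was 0.21, beside -0.0007 over all tested genes. The 10 and the gene lists below were chosen with earlier results of these data known, so such counts only describe them. In a bulk measurement, fewer cells making a transcript and less of it per cell cannot be told apart. The labels do not say that the libraries of a group were separate cultures. The p-values therefore measure only how far these libraries spread, which may be technical.

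**Figure D2:**
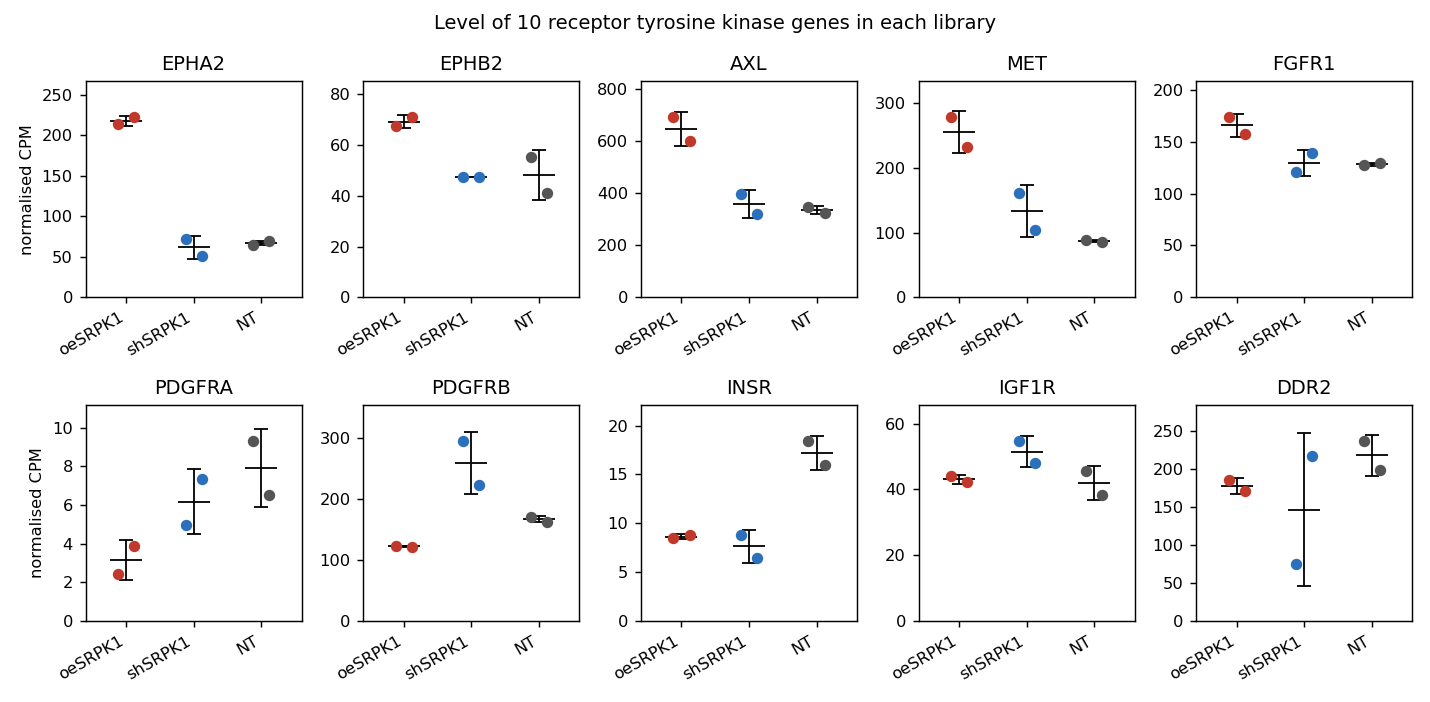
Normalised CPM of each receptor (linear axis from 0, a scale of its own in each panel) in oeSRPK1, shSRPK1 and NT, with a point for each library, a line at the group mean and error bars of 1 SD (n = 2). EPHA2, AXL and MET are highest in the oeSRPK1 libraries, PDGFRB in the shSRPK1 libraries and INSR in the NT libraries, while the shSRPK1 libraries of DDR2 lie far apart.

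EPHA2, a receptor for membrane-bound ephrin-A ligands, was higher in oeSRPK1. EPHA2 (ENSG00000142627.12, GRCh38 chromosome 1, 16124337 to 16156087, minus strand) was found at 213.7 and 222.6 normalised CPM in oeSRPK1, 71.7 and 51.5 in shSRPK1, and 65.0 and 69.1 in NT. Both oeSRPK1 libraries lay above all the others, and the shSRPK1 libraries lay on either side of NT. The level in oeSRPK1 was 3.25 times that in NT (95% interval 2.51 to 4.21, 1.70 ± 0.16, edgeR adjusted p = 0.000829) and 3.53 times that in shSRPK1 (2.73 to 4.58, 1.82 ± 0.16, edgeR adjusted p = 0.00137). Both calls held under each of the 16 alternatives tried, with adjusted p of at most 0.025 and 0.0323. In shSRPK1 against NT the change was -0.12 ± 0.16 (edgeR adjusted p = 0.660), and without shSRPK1 1 it passed at -0.38 (edgeR adjusted p = 0.018). Summed CPM of 6 epithelial markers was 123 and 132 in oeSRPK1, 80 and 58.6 in shSRPK1, and 63.7 and 69.5 in NT. KRT7 was at 44.6 and 53 CPM in oeSRPK1, 2.95 and 4.02 in shSRPK1, and 12.9 and 13.9 in NT. KRT18 was at 63 and 64.9 CPM in oeSRPK1, 59.1 and 36.8 in shSRPK1, and 32.5 and 36 in NT. KRT8 was lowest in oeSRPK1, at 14.2 and 13.2 CPM, against 16.9 and 16.4 in shSRPK1 and 17.4 and 18.7 in NT. Each library had reads of 5 or 6 of these markers, and CDH1 was at 0 in all but oeSRPK1 1. The part of these markers in the EPHA2 result was not tested.

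MET, the receptor for hepatocyte growth factor, was also higher in oeSRPK1. MET (ENSG00000105976.13, chromosome 7, 116672390 to 116798386, plus strand) had 278.8 and 232.7 normalised CPM in oeSRPK1, 162.0 and 104.5 in shSRPK1, and 88.1 and 86.2 in NT. The groups did not overlap, with oeSRPK1 highest and NT lowest. MET in oeSRPK1 was at 2.94 times the NT level (95% interval 2.11 to 4.09, 1.56 ± 0.21, edgeR adjusted p = 0.00312) and 1.92 times that in shSRPK1 (1.39 to 2.66, 0.94 ± 0.20, edgeR adjusted p = 0.0166). In shSRPK1 it was 1.53 times that in NT (1.11 to 2.12, 0.61 ± 0.20, edgeR adjusted p = 0.096), which missed the threshold. That difference was 0.26 without shSRPK1 1 (edgeR adjusted p = 0.112) and passed at 0.90 without shSRPK1 2 (edgeR adjusted p = 7.61e-06). It also passed with no filter on low counts (edgeR adjusted p = 0.000604). The call against NT was lost in edgeR without oeSRPK1 1 (adjusted p = 0.0641), NT 1 (0.0531) or NT 2 (0.0509). The call against shSRPK1 was lost in edgeR without oeSRPK1 1 (adjusted p = 0.178), oeSRPK1 2 (0.0619) or NT 2 (0.0508), and when only the libraries compared were fitted (0.0519).

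AXL (ENSG00000167601.10, chromosome 19, 41219203 to 41261766, plus strand) had 692.3 and 598.7 normalised CPM in oeSRPK1, 396.0 and 320.0 in shSRPK1, and 347.0 and 323.7 in NT. Both oeSRPK1 libraries lay above the others, and shSRPK1 and NT overlapped. AXL in oeSRPK1 was at 1.93 times the NT level (95% interval 1.51 to 2.45, 0.95 ± 0.15, edgeR adjusted p = 0.00601) and 1.80 times that in shSRPK1 (1.42 to 2.30, 0.85 ± 0.15, edgeR adjusted p = 0.00845). The difference of shSRPK1 from NT was 0.09 ± 0.15 (95% interval of the fold 0.840 to 1.36, edgeR adjusted p = 0.718). The call against NT was lost in edgeR without oeSRPK1 1 (adjusted p = 0.108), NT 1 (0.077) or NT 2 (0.0843), and that against shSRPK1 without oeSRPK1 1 (0.133). The exons of AXL share 67 bases with AC011510.1 on the other strand, which had 0 reads in every library.

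Bases upstream of EPHA2, MET and AXL are shown because these receptors had the largest rises in oeSRPK1 against NT. They come from RefSeq's GRCh38.p14 promoters and are given 5' to 3' on the gene's strand. The windows of EPHA2 and AXL were cut to end at the base before the GENCODE 29 gene start, and that of MET ends 194 bases before it. They cover chr1:16156088-16156319 (minus strand) for EPHA2, chr7:116671946-116672195 (plus strand) for MET and chr19:41218973-41219202 (plus strand) for AXL, and capitals mark matches to the motifs searched.
EPHA2: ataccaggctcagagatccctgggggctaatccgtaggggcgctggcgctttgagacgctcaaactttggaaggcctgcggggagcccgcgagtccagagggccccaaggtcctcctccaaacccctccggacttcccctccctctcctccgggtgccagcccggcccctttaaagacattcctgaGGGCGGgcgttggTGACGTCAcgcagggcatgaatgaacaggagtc
MET: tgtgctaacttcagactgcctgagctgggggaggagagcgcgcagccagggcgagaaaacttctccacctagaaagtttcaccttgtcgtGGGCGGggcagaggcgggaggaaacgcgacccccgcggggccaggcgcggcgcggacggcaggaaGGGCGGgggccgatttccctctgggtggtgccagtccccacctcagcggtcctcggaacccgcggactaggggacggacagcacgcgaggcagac
AXL: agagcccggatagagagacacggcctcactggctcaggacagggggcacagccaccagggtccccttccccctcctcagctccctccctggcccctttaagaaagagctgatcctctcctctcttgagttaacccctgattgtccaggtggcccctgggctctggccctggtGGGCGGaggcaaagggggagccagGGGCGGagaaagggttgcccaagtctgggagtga
Motifs searched on both strands were a GC box (GGGCGG), AP-1 (TGANTCA), CRE (TGACGTCA), NF-kB (GGGA and TTCC with 2 bases of any kind between) and ISRE (GAAA repeated after 2 bases of any kind), none overlapping another in these windows. The GC box matched 1 time in EPHA2, 2 times in MET and 2 times in AXL, and is held by 42.3% of 27305 RefSeq promoters in windows of 250 bases. The CRE matched 1 time in EPHA2 and is held by 1.77% of those promoters. AP-1, NF-kB and ISRE had 0 matches in these windows and are held by 6.6%, 1.42% and 3.07% of promoters. The motifs were chosen with the results known, and a match is only a string of letters, with no binding measured.

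EPHB2, a receptor for ephrin-B ligands, was higher in oeSRPK1 by less. EPHB2 (ENSG00000133216.15, chromosome 1, 22710839 to 22921500, plus strand) had 67.5 and 71.1 normalised CPM in oeSRPK1, 47.5 and 47.3 in shSRPK1, and 55.3 and 41.2 in NT. Both oeSRPK1 libraries lay above the others, and the shSRPK1 libraries lay between those of NT. EPHB2 in oeSRPK1 was at 1.44 times the NT level (95% interval 1.13 to 1.83, 0.52 ± 0.15, edgeR adjusted p = 0.0463) and 1.46 times that in shSRPK1 (1.14 to 1.86, 0.54 ± 0.15, edgeR adjusted p = 0.0383). In shSRPK1 against NT it was -0.02 ± 0.15 (95% interval of the fold 0.772 to 1.25, edgeR adjusted p = 0.937). The call against NT was lost in edgeR without oeSRPK1 1 (adjusted p = 0.242), oeSRPK1 2 (0.189), NT 1 (0.0769) or NT 2 (0.312), with upper-quartile scaling (0.0627) and in DESeq2 (adjusted p = 0.0583). That against shSRPK1 was lost in edgeR without oeSRPK1 1 (adjusted p = 0.214), oeSRPK1 2 (0.161) or NT 2 (0.0501), and in limma-voom with a weight per group (adjusted p = 0.103). EPHA2 exceeded EPHB2 per length 9.52 and 9.42 times in oeSRPK1, 4.54 and 3.28 times in shSRPK1, and 3.53 and 5.04 times in NT.

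The platelet-derived growth factor receptors are close relatives that bind dimers of the PDGF chains, and both were lower in oeSRPK1 than in NT, PDGFRA with a call and PDGFRB without. PDGFRB (ENSG00000113721.12, chromosome 5, 150113837 to 150155872, minus strand), also a marker of pericytes, had 122.6 and 121.8 normalised CPM in oeSRPK1, 295.5 and 222.5 in shSRPK1, and 170.0 and 162.9 in NT. The groups did not overlap, with oeSRPK1 lowest and shSRPK1 highest. In shSRPK1 the level was 1.56 times that in NT (95% interval 1.23 to 1.97, 0.64 ± 0.15, edgeR adjusted p = 0.0374), and in oeSRPK1 it was 0.472 times that in shSRPK1 (0.371 to 0.600, -1.08 ± 0.15, edgeR adjusted p = 0.00392). In oeSRPK1 against NT it was 0.734 times (0.578 to 0.933, -0.45 ± 0.15, edgeR adjusted p = 0.0706), which missed the threshold. That difference passed in edgeR without shSRPK1 1 (adjusted p = 0.000193) or shSRPK1 2 (0.000197), with no filter (0.00497) and when only the libraries compared were fitted (0.00025), and also in limma-voom weighted by group (adjusted p = 0.00362). The rise in shSRPK1 against NT was lost in edgeR without oeSRPK1 1 (adjusted p = 0.109), oeSRPK1 2 (0.11), NT 1 (0.3) or NT 2 (0.233) and when only the libraries compared were fitted (0.112), and the call in oeSRPK1 against shSRPK1 without oeSRPK1 1 (0.0833). Summed CPM of the 6 pericyte markers was 34.6 and 41.1 in oeSRPK1, 37.0 and 41.0 in shSRPK1, and 51.7 and 48.5 in NT. MCAM made up 30 and 34.9 of it in oeSRPK1, 30.9 and 36 in shSRPK1, and 45 and 41.7 in NT. Of the 6 markers, 5 and 6 had reads in oeSRPK1, 4 and 4 in shSRPK1, and 4 and 5 in NT. The part of such cells in the PDGFRB result was not tested.

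PDGFRA (ENSG00000134853.10, chromosome 4, 54229097 to 54298247, plus strand), the receptor that marks oligodendrocyte precursors in the brain, was near the bottom of the range. It had 2.43 and 3.88 normalised CPM in oeSRPK1, 4.98 and 7.36 in shSRPK1, and 9.32 and 6.50 in NT, from 54 and 15, 66 and 77, and 96 and 92 reads. The oeSRPK1 libraries lay below all the others, and shSRPK1 overlapped NT. PDGFRA in oeSRPK1 was at 0.362 times the NT level (95% interval 0.210 to 0.625, -1.46 ± 0.34, edgeR adjusted p = 0.0218), a call lost in edgeR without oeSRPK1 1 (adjusted p = 0.281), oeSRPK1 2 (0.0585), NT 1 (0.175) or NT 2 (0.074). In oeSRPK1 against shSRPK1 it was 0.464 times (0.267 to 0.806, -1.11 ± 0.35, edgeR adjusted p = 0.0528), which missed the threshold but passed in edgeR without shSRPK1 1 (adjusted p = 0.0013) or shSRPK1 2 (0.0355), with no filter (0.00176) and with upper-quartile scaling (0.0486). Its value in shSRPK1 against NT was -0.36 ± 0.30 (edgeR adjusted p = 0.471). The exons of PDGFRA share 1533 bases, 15.8% of their length, with AC058822.1 on the same strand, and how many of its reads fall there was not measured. PDGFRB exceeded PDGFRA per length 68.8 and 42.8 times in oeSRPK1, 80.8 and 41.2 times in shSRPK1, and 24.9 and 34.2 times in NT.

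The insulin receptor INSR was lower in both transfected groups, while its relative IGF1R, the receptor for insulin-like growth factors, was not called in any comparison. INSR (ENSG00000171105.12, chromosome 19, 7112255 to 7294034, minus strand) was found at 8.46 and 8.79 normalised CPM in oeSRPK1, 8.84 and 6.41 in shSRPK1, and 18.4 and 16.0 in NT. The transfected libraries overlapped one another and lay below NT. The level in oeSRPK1 was 0.4997 times the NT level (95% interval 0.360 to 0.694, -1.0009 ± 0.21, edgeR adjusted p = 0.0143), and that in shSRPK1 was 0.447 times (0.324 to 0.616, -1.16 ± 0.20, edgeR adjusted p = 0.0176), comparisons that share the NT libraries. In oeSRPK1 against shSRPK1 it was 1.12 times (0.795 to 1.57, 0.16 ± 0.21, edgeR adjusted p = 0.612). The call in oeSRPK1 was lost in edgeR without oeSRPK1 1 (adjusted p = 0.163), oeSRPK1 2 (0.0747), NT 1 (0.138) or NT 2 (0.0798). The call in shSRPK1 was lost in edgeR without oeSRPK1 1 (adjusted p = 0.066), oeSRPK1 2 (0.0631), NT 1 (0.23) or NT 2 (0.11), and when only the libraries compared were fitted (0.07).

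IGF1R (ENSG00000140443.12, chromosome 15, 98648539 to 98964530, plus strand) had 44.0 and 42.1 normalised CPM in oeSRPK1, 54.8 and 48.2 in shSRPK1, and 45.6 and 38.4 in NT. The oeSRPK1 libraries lay within the range of NT, and those of shSRPK1 lay above both groups. The level in oeSRPK1 was 1.03 times that in NT (95% interval 0.827 to 1.28, 0.04 ± 0.14, edgeR adjusted p = 0.855) and 0.838 times that in shSRPK1 (0.674 to 1.04, -0.25 ± 0.14, edgeR adjusted p = 0.208). In shSRPK1 it was 1.23 times that in NT (0.991 to 1.52, 0.30 ± 0.13, edgeR adjusted p = 0.189). Leaving out shSRPK1 2, edgeR called IGF1R higher in shSRPK1 than in NT (0.39, adjusted p = 0.0245) and lower in oeSRPK1 than in shSRPK1 (-0.38, adjusted p = 0.0241). The ratio of IGF1R to INSR per length was 3.90 and 3.59 in oeSRPK1, 4.65 and 5.64 in shSRPK1, and 1.85 and 1.80 in NT, so the transfected libraries did not overlap NT.

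FGFR1, a receptor for fibroblast growth factors, was not called in any comparison. FGFR1 (ENSG00000077782.18, chromosome 8, 38400215 to 38468834, minus strand) was measured at 174.0 and 157.7 normalised CPM in oeSRPK1, 121.1 and 138.9 in shSRPK1, and 127.4 and 129.5 in NT. The oeSRPK1 libraries lay above the others, and NT lay between the shSRPK1 libraries. The level in oeSRPK1 was 1.29 times that in NT (95% interval 1.07 to 1.57, 0.37 ± 0.12, edgeR adjusted p = 0.0634) and 1.28 times that in shSRPK1 (1.06 to 1.55, 0.35 ± 0.12, edgeR adjusted p = 0.0677). Against NT, FGFR1 passed in edgeR when shSRPK1 1 was left out (adjusted p = 0.00413) or shSRPK1 2 (0.0052) and when only the libraries compared were fitted (0.00376), and also in limma-voom weighted by group (adjusted p = 0.00672). That from shSRPK1 passed in edgeR without shSRPK1 2 (adjusted p = 0.00534). Its value in shSRPK1 against NT was 0.02 ± 0.12 (edgeR adjusted p = 0.942). The exons of FGFR1 share 138 bases with LETM2 on the other strand, which had between 16 and 82 reads per library.

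DDR2, a receptor for fibrillar collagens, was not called in any comparison, and its shSRPK1 libraries differed 2.88-fold. DDR2 (ENSG00000162733.15, chromosome 1, 162631373 to 162787400, plus strand) had 185.6 and 170.9 normalised CPM in oeSRPK1, 75.6 and 217.7 in shSRPK1, and 237.5 and 199.1 in NT. The oeSRPK1 libraries lay below NT, with 1 shSRPK1 library below them and the other inside the range of NT. The changes were -0.29 ± 0.48 in oeSRPK1 against NT (95% interval of the fold 0.349 to 1.92, edgeR adjusted p = 0.713), -0.58 ± 0.48 in shSRPK1 against NT (0.287 to 1.57, edgeR adjusted p = 0.486) and 0.29 ± 0.48 in oeSRPK1 against shSRPK1 (edgeR adjusted p = 0.706). With shSRPK1 1 left out, edgeR called DDR2 lower in oeSRPK1 than in NT (-0.32, adjusted p = 0.0132), and lower in oeSRPK1 than in shSRPK1, a change of sign (-0.32, adjusted p = 0.0428). With shSRPK1 2 left out, edgeR called it lower in oeSRPK1 (-0.33, adjusted p = 0.012) and in shSRPK1 (-1.53, adjusted p = 3.1e-08) than in NT, and higher in oeSRPK1 than in shSRPK1 (1.2004, adjusted p = 4.95e-07). It also passed when only the oeSRPK1 and NT libraries were fitted (edgeR adjusted p = 0.0163).

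**Figure D3:**
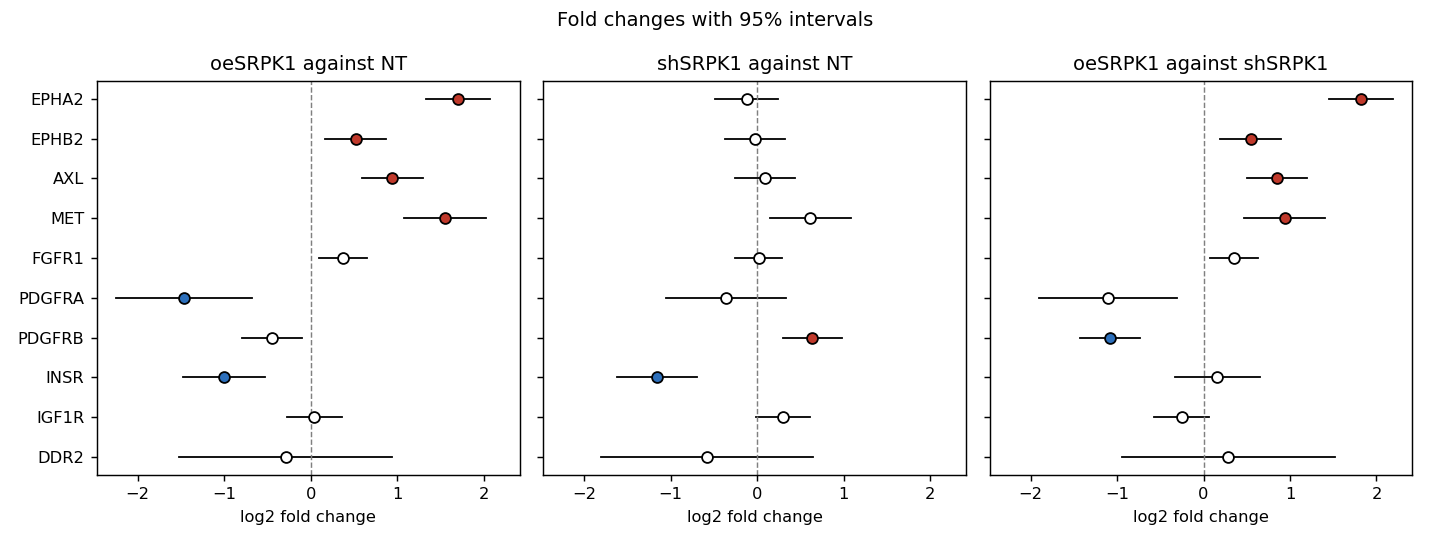
Log2 fold change of each receptor in oeSRPK1 against NT, shSRPK1 against NT and oeSRPK1 against shSRPK1, with 95% intervals from edgeR. Filled points passed an adjusted p under 0.05, red for higher and blue for lower. EPHA2, MET and AXL lie to the right in oeSRPK1 against NT, INSR and PDGFRA to the left, and DDR2 has the widest intervals.

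In shSRPK1 against NT, 2 of the 10 receptors were called, PDGFRB higher and INSR lower, against 9.18% of all tested genes (5.43% higher and 3.75% lower). The median of the 10 was -0.0031, beside 0.0106 over all genes. In oeSRPK1 against shSRPK1, which sets transfected cells against transfected cells with different vectors, 5 of 10 were called, EPHA2, AXL, MET and EPHB2 higher and PDGFRB lower, against 22.8% of all tested genes (11.5% higher and 11.3% lower). The median of the 10 was 0.32, beside -0.0020 over all genes. With oeSRPK1 1, oeSRPK1 2, shSRPK1 1, shSRPK1 2, NT 1 and NT 2 left out in turn, edgeR called 1, 3, 9, 9, 1 and 1 receptors in oeSRPK1 against NT, 0, 0, 3, 5, 0 and 0 in shSRPK1 against NT, and 1, 3, 7, 9, 5 and 3 in oeSRPK1 against shSRPK1. At an unadjusted p under 0.05, edgeR counted 3, 3, 4, 7, 2 and 2 receptors in shSRPK1 against NT in that order.

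EGFR, the receptor set apart from these 10, had 1213 and 957.5 normalised CPM in oeSRPK1, 522.4 and 468.0 in shSRPK1, and 304.0 and 317.9 in NT. It was called higher in oeSRPK1 against NT (1.80 ± 0.16, edgeR adjusted p = 0.000596), in shSRPK1 against NT (0.67 ± 0.15, edgeR adjusted p = 0.0357) and in oeSRPK1 against shSRPK1 (1.13 ± 0.15, edgeR adjusted p = 0.00373). The call in shSRPK1 against NT was lost in edgeR without oeSRPK1 1, oeSRPK1 2, NT 1 or NT 2, and when only the libraries compared were fitted (adjusted p = 0.0794), and the call against shSRPK1 without oeSRPK1 1. Of 20 tested genes among 44 other receptor tyrosine kinases, 2 were higher and 5 lower in oeSRPK1 against NT (median -0.12), 0 and 3 in shSRPK1 against NT (median -0.18), and 2 and 4 in oeSRPK1 against shSRPK1 (median 0.05). Called in either direction were 35%, 15% and 30% of the tested genes of this list, beside 20.6%, 9.18% and 22.8% of all tested genes. Higher levels with an unadjusted edgeR p under 0.05 were found for 3 in shSRPK1 against NT, and DESeq2 and limma-voom also called 0 higher.

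KIT, the receptor for stem cell factor, had 4.18 and 3.36 CPM in oeSRPK1, 3.93 and 2.77 in shSRPK1, and 12.3 and 13.1 in NT, and was lower in oeSRPK1 (-1.69 ± 0.24, edgeR adjusted p = 0.00357) and in shSRPK1 (-1.91 ± 0.23, edgeR adjusted p = 0.00631) than in NT. FGFR3 had 0.900 and 1.03 CPM in oeSRPK1, 2.27 and 1.82 in shSRPK1, and 4.85 and 4.31 in NT, from 20 and 4, 30 and 19, and 50 and 61 reads, and fell against NT in oeSRPK1 (-2.28 ± 0.32, edgeR adjusted p = 0.00365) and in shSRPK1 (-1.15 ± 0.28, edgeR adjusted p = 0.0425). TYRO3, a relative of AXL that binds the same ligands, was called lower in both comparisons with NT, while AXL was called higher than NT in oeSRPK1 only. It had 17.5 and 20.7 CPM in oeSRPK1, 26.9 and 19.7 in shSRPK1, and 38.3 and 36.3 in NT (-0.99 ± 0.18 in oeSRPK1 against NT, edgeR adjusted p = 0.00906), and was also lower in shSRPK1 than in NT (-0.67 ± 0.17, edgeR adjusted p = 0.0486). MST1R, the relative of MET that binds macrophage-stimulating protein, had 3.60 and 3.88 CPM in oeSRPK1, 1.28 and 0.669 in shSRPK1, and 0.971 and 1.201 in NT. It was higher in oeSRPK1 against shSRPK1 (1.88 ± 0.38, edgeR adjusted p = 0.0139). MST1R was also called higher in oeSRPK1 than in NT (1.61 to 1.91 over the alternatives), a call lost in 5 of 15 alternatives. DDR1, the relative of DDR2, had 58.4 and 67.7 CPM in oeSRPK1, 85.8 and 110 in shSRPK1, and 73.7 and 70.9 in NT, and fell in oeSRPK1 against shSRPK1 (-0.64 ± 0.15, edgeR adjusted p = 0.0208). PTK7, a receptor with an inactive kinase domain, was lower in oeSRPK1 than in NT (-0.59 ± 0.12, edgeR adjusted p = 0.0134). ROR1, a receptor of the WNT family, was higher in oeSRPK1 against shSRPK1 (2.12 ± 0.32, edgeR adjusted p = 0.00497). Leaving out oeSRPK1 1, oeSRPK1 2, shSRPK1 1, shSRPK1 2, NT 1 and NT 2 in turn, edgeR called 0, 0, 3, 3, 0 and 0 of these kinases higher and 0, 3, 7, 7, 1 and 1 lower in oeSRPK1 against NT. The counts in shSRPK1 against NT were 0, 0, 1, 1, 0 and 0 higher and 1, 1, 6, 8, 0 and 0 lower in that order. Those in oeSRPK1 against shSRPK1 were 0, 1, 4, 3, 2 and 2 higher and 0, 0, 3, 6, 1 and 0 lower.

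Of 19 tested genes among 29 ligands of the 10 receptors, 3 were higher and 2 lower in oeSRPK1 against NT, 2 and 1 in shSRPK1 against NT, and 0 and 2 in oeSRPK1 against shSRPK1 (medians 0.11, 0.27 and -0.25). Called in either direction were 26.3%, 15.8% and 10.5% of the tested genes of this list, beside 20.6%, 9.18% and 22.8% of all tested genes. In oeSRPK1 against shSRPK1, 4 had an unadjusted edgeR p under 0.05 with a higher level, DESeq2 called 1 higher and limma-voom 2. HGF, the ligand of MET, had 2 reads in oeSRPK1 1 and 0 in the other libraries, IGF1 had 1 read in oeSRPK1 1, NT 1 and NT 2 and 0 in the others, and INS had 0 in all. GAS6, the ligand of AXL, had 719 and 124 reads in oeSRPK1, 606 and 318 in shSRPK1, and 326 and 517 in NT. These are raw counts from libraries of unequal depth, and GAS6 was not called in any comparison. PDGFD and PDGFC, ligands of the PDGF receptors, were called in opposite directions in oeSRPK1 against NT. PDGFD, which binds PDGFRB, had 34.2 and 41.9 CPM in oeSRPK1, 112 and 259 in shSRPK1, and 221 and 237 in NT, and was lower in oeSRPK1 than in NT (-2.61 ± 0.41, edgeR adjusted p = 0.0109). PDGFC, which binds PDGFRA, had 86.5 and 72.9 CPM in oeSRPK1, 37.5 and 61.8 in shSRPK1, and 34.0 and 36.1 in NT, and was higher in oeSRPK1 than in NT (1.19 ± 0.23, edgeR adjusted p = 0.0123). EFNA1, an ephrin that binds EPHA2, had 17.8 and 18.4 CPM in oeSRPK1, 24.8 and 22 in shSRPK1, and 10.8 and 12.7 in NT, and was higher than in NT in oeSRPK1 (0.61 ± 0.16, edgeR adjusted p = 0.0325) and in shSRPK1 (0.99 ± 0.16, edgeR adjusted p = 0.0127). EFNB2, an ephrin that binds EPHB2, was higher in oeSRPK1 than in NT on few reads (55 and 7 in oeSRPK1, 5 and 12 in NT, 1.71 ± 0.42, edgeR adjusted p = 0.0254), and PROS1 was lower (-0.78 ± 0.20, edgeR adjusted p = 0.0294). COL1A2, a chain of the fibrillar collagen that DDR2 binds, had 2612 and 2626 CPM in oeSRPK1, 4750 and 3983 in shSRPK1, and 2495 and 2622 in NT (0.77 ± 0.15 in shSRPK1 against NT, edgeR adjusted p = 0.0246). FGF1, a ligand of FGFR1, was lower in shSRPK1 than in NT (-1.75 ± 0.30, edgeR adjusted p = 0.0169). Leaving out oeSRPK1 1, oeSRPK1 2, shSRPK1 1, shSRPK1 2, NT 1 and NT 2 in turn, edgeR called 1, 1, 5, 5, 0 and 0 ligands higher and 0, 1, 5, 5, 0 and 0 lower in oeSRPK1 against NT. The counts in shSRPK1 against NT were 1, 1, 4, 7, 0 and 0 higher and 0, 0, 2, 4, 0 and 0 lower in that order. Those in oeSRPK1 against shSRPK1 were 0, 0, 4, 2, 0 and 0 higher and 0, 0, 4, 8, 1 and 1 lower.

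Of 21 tested genes among 26 partners that bind, store or cleave the ligands and receptors, 6 were higher and 6 lower in oeSRPK1 against NT, 3 and 4 in shSRPK1 against NT, and 4 and 5 in oeSRPK1 against shSRPK1 (medians 0.15, 0.04 and -0.04). Called in either direction were 57.1%, 33.3% and 42.9% of the tested genes of this list, beside 20.6%, 9.18% and 22.8% of all tested genes. PLAU, the urokinase protease that can activate pro-HGF, had 1376 and 1296 CPM in oeSRPK1, 139 and 252 in shSRPK1, and 406 and 399 in NT. It was higher in oeSRPK1 (1.73 ± 0.26, edgeR adjusted p = 0.00526) and lower in shSRPK1 (-1.04 ± 0.25, edgeR adjusted p = 0.0448) than in NT. The heparan sulfate proteoglycans, of the kind that serve fibroblast growth factors as co-receptors, were called in both directions in oeSRPK1 against NT. GPC1, GPC4, SDC1, SDC2 and SDC3 were lower and SDC4 was higher. GPC4, SDC2 and SDC4 were named after their values were seen, and how their calls fare under the alternatives is not given here. SDC4 had 1285 and 1098 CPM in oeSRPK1, 532 and 327 in shSRPK1, and 329 and 439 in NT (1.63 ± 0.25 in oeSRPK1 against NT, edgeR adjusted p = 0.00599). GPC1 had 52.6 and 62.3 CPM in oeSRPK1, 195 and 234 in shSRPK1, and 225 and 190 in NT (-1.86 ± 0.16 in oeSRPK1 against NT, edgeR adjusted p = 0.000535). SDC3 changed by -0.72 ± 0.11 (edgeR adjusted p = 0.00538), SDC1 by -1.50 ± 0.25 (edgeR adjusted p = 0.0082), SDC2 by -0.94 ± 0.21 (edgeR adjusted p = 0.0199) and GPC4 by -1.46 ± 0.27 (edgeR adjusted p = 0.00924). SDC1 and SDC3 were also called lower in shSRPK1 against NT. Both of those calls were lost when only the libraries compared were fitted (edgeR adjusted p = 0.0764 and 0.0997). Of the binding proteins of insulin-like growth factors, IGFBP3 had 5150 and 4423 CPM in oeSRPK1, 5450 and 2989 in shSRPK1, and 1300 and 1787 in NT, and was higher than in NT in oeSRPK1 (1.63 ± 0.30, edgeR adjusted p = 0.011) and in shSRPK1 (1.45 ± 0.30, edgeR adjusted p = 0.0286). IGFBP4 was lower in oeSRPK1 than in NT (-1.02 ± 0.13, edgeR adjusted p = 0.00234), and IGFBP2 was higher in shSRPK1 than in NT (0.62 ± 0.11, edgeR adjusted p = 0.0203). PAPPA2, a protease that cuts such binding proteins, had 77 and 13 reads in oeSRPK1, 2 and 1 in shSRPK1, and 24 and 32 in NT, so its level in shSRPK1 lay at or under the floor of 3 reads. Leaving out oeSRPK1 1, oeSRPK1 2, shSRPK1 1, shSRPK1 2, NT 1 and NT 2 in turn, edgeR called 0, 2, 8, 8, 0 and 1 partners higher and 1, 4, 7, 7, 2 and 3 lower in oeSRPK1 against NT. The counts in shSRPK1 against NT were 0, 0, 7, 7, 0 and 0 higher and 1, 1, 4, 7, 0 and 0 lower in that order. Those in oeSRPK1 against shSRPK1 were 2, 4, 7, 5, 4 and 4 higher and 1, 2, 7, 9, 4 and 4 lower.

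**Figure D4:**
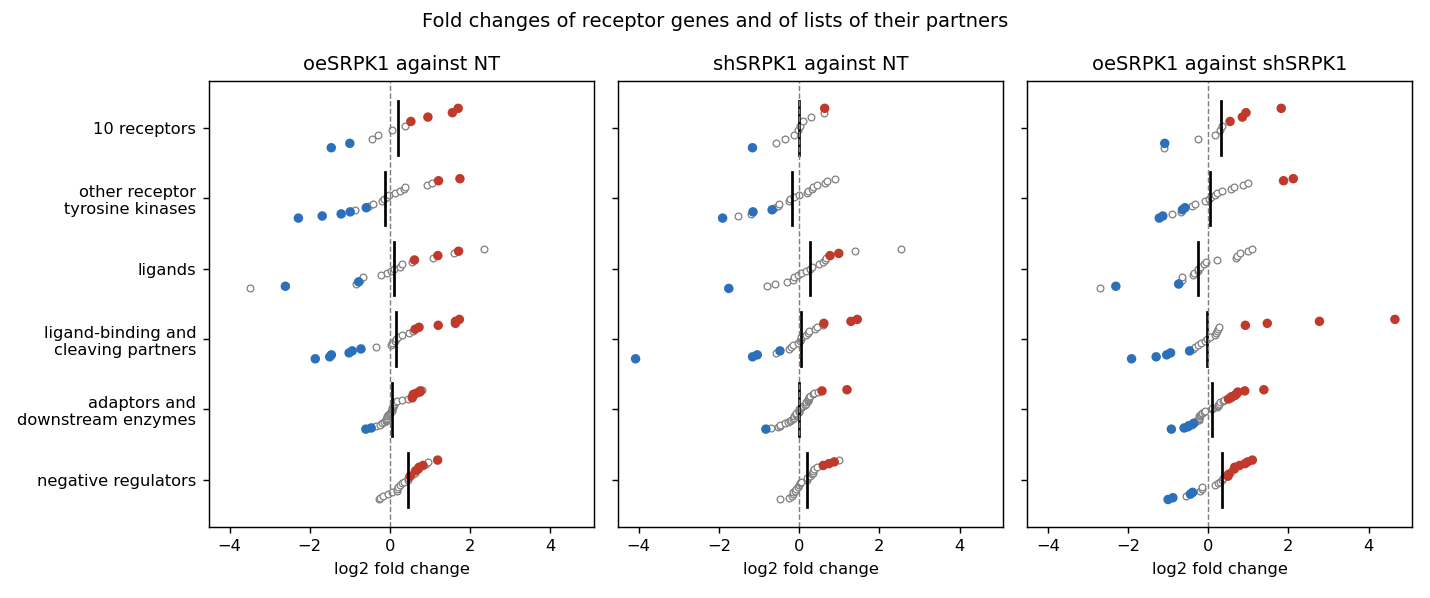
Log2 fold change of every tested gene of the 10 receptors and of each list of related genes in the 3 comparisons, with a black line at the list median. Red points were called higher and blue points lower by edgeR, and open points were not called. The negative regulators have 6 higher and 0 lower in oeSRPK1 against NT, and the partners 6 and 6.

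Of 35 tested adaptors and downstream enzymes, 6 were higher and 2 lower in oeSRPK1 against NT, 2 and 1 in shSRPK1 against NT, and 8 and 5 in oeSRPK1 against shSRPK1 (medians 0.06, 0.01 and 0.09). Called in either direction were 22.9%, 8.57% and 37.1% of the tested genes of this list, beside 20.6%, 9.18% and 22.8% of all tested genes. HRAS, a RAS GTPase, had 34.2 and 28.95 CPM in oeSRPK1, 21.4 and 21.3 in shSRPK1, and 19.2 and 18.9 in NT (0.74 ± 0.14 in oeSRPK1 against NT, edgeR adjusted p = 0.00967), and NRAS was also higher there (0.58 ± 0.15, edgeR adjusted p = 0.0277). PIK3CD, a catalytic subunit of PI3 kinase, was higher in oeSRPK1 than in NT (0.75 ± 0.18, edgeR adjusted p = 0.0254), while the MAP kinase gene MAPK3 (-0.60 ± 0.13, edgeR adjusted p = 0.0172) and the adaptor NCK1 (-0.47 ± 0.11, edgeR adjusted p = 0.025) were lower. SHC1, an adaptor that binds phosphorylated receptors, had 202 and 198 CPM in oeSRPK1, 352 and 404 in shSRPK1, and 245 and 265 in NT (0.57 ± 0.12 in shSRPK1 against NT, edgeR adjusted p = 0.0307). The docking protein GAB2 had 22.8 and 20.9 CPM in oeSRPK1, 7.33 and 9.56 in shSRPK1, and 14.95 and 14.9 in NT (-0.83 ± 0.18 in shSRPK1 against NT, edgeR adjusted p = 0.0294). IRS2, a substrate of INSR and IGF1R, was higher in shSRPK1 than in NT (1.19 ± 0.26, edgeR adjusted p = 0.0356), and PIK3CB was higher in oeSRPK1 against shSRPK1 (0.91 ± 0.15, edgeR adjusted p = 0.00671). Leaving out oeSRPK1 1, oeSRPK1 2, shSRPK1 1, shSRPK1 2, NT 1 and NT 2 in turn, edgeR called 0, 1, 9, 9, 0 and 0 of these genes higher and 0, 0, 6, 6, 0 and 0 lower in oeSRPK1 against NT. The counts in shSRPK1 against NT were 0, 0, 6, 4, 0 and 0 higher and 0, 0, 3, 9, 0 and 0 lower in that order. Those in oeSRPK1 against shSRPK1 were 0, 2, 8, 14, 3 and 3 higher and 0, 1, 10, 8, 2 and 2 lower.

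Of 23 tested genes among 27 negative regulators, 6 were higher and 0 lower in oeSRPK1 against NT (median 0.44), 3 and 0 in shSRPK1 against NT (median 0.20), and 8 and 4 in oeSRPK1 against shSRPK1 (median 0.35). Called in either direction were 26.1%, 13% and 52.2% of the tested genes of this list, beside 20.6%, 9.18% and 22.8% of all tested genes. With a lower level, 0 had an unadjusted edgeR p under 0.05 in oeSRPK1 against NT and 1 in shSRPK1 against NT, and DESeq2 and limma-voom called 0 lower in either. SH3KBP1, an adaptor of CBL in receptor uptake, had 236 and 212 CPM in oeSRPK1, 124 and 103 in shSRPK1, and 105 and 92.0 in NT (1.19 ± 0.14 in oeSRPK1 against NT, edgeR adjusted p = 0.00195). SH2B3, an adaptor that dampens receptor signals, was higher in oeSRPK1 than in NT (0.82 ± 0.11, edgeR adjusted p = 0.00302), as was RASA1, a GTPase-activating protein of RAS (0.71 ± 0.11, edgeR adjusted p = 0.00505). LRIG3, of a family that restrains receptor kinases, was higher than in NT in oeSRPK1 (0.72 ± 0.16, edgeR adjusted p = 0.0178) and in shSRPK1 (0.87 ± 0.16, edgeR adjusted p = 0.0195). ERRFI1, an inhibitor of EGFR family kinases, had 416 and 390 CPM in oeSRPK1, 841 and 773 in shSRPK1, and 437 and 527 in NT, and was higher in shSRPK1 than in NT (0.74 ± 0.14, edgeR adjusted p = 0.0221). SOCS3, a suppressor of cytokine signalling that acts on several receptors, was higher in shSRPK1 than in NT (0.60 ± 0.15, edgeR adjusted p = 0.0457), and both genes had lower levels in oeSRPK1 against shSRPK1 (-1.001 ± 0.14 and -0.88 ± 0.16, edgeR adjusted p = 0.00419 and 0.0084). Leaving out oeSRPK1 1, oeSRPK1 2, shSRPK1 1, shSRPK1 2, NT 1 and NT 2 in turn, edgeR called 0, 3, 13, 13, 2 and 1 negative regulators higher and 0, 0, 2, 2, 0 and 0 lower in oeSRPK1 against NT. The counts in shSRPK1 against NT were 0, 0, 9, 6, 0 and 0 higher and 0, 0, 1, 2, 0 and 0 lower in that order. Those in oeSRPK1 against shSRPK1 were 0, 2, 8, 12, 2 and 2 higher and 0, 0, 6, 5, 2 and 2 lower.

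The genes whose log2 CPM over the 6 libraries was most like that of a receptor were found for the 3 receptors with the widest range of group means. They were SEC11C and DHX32 for EPHA2 (Pearson r = 0.998 and 0.998), SHB and EDC3 for MET (r = 0.9997 and 0.998), and PPAT and FRAT1 for PDGFRA (r = 0.992 and 0.991). These 6 points fall into 3 groups, so the values describe likeness over those libraries only.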

How the data were processed

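RNA of T98G cells was measured in 6 libraries of 3 groups. The authors deposited a table of raw read counts per gene id for each library. FastQC, Trimmomatic, STAR 2.5.3 and hg38 are named, per the submitters' processing notes. Counting tool, annotation release and strandedness are not given in the sources used here, so reads of antisense or overlapping genes cannot be separated. Entries that name no gene (23.5% to 26.7% of the total) were left out. A gene name table gave symbols to 56321 ids, GENCODE 29 to another 432, and 3730 ids had no symbol. The members and all gene lists were chosen with earlier results of these data known.

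Genes were tested with edgeR 4.0.16 (R 4.3.3), on those kept by filterByExpr (minimum count 10, minimum total 15), with TMM scaling, glmQLFit and glmQLFTest over all 6 libraries. CPM was normalised by TMM-scaled library sizes, with a prior count of 2 on the log2 scale. RPKM divides it by merged exon length from GENCODE 29. A floor of 3 reads stood for 0.135 and 0.776 CPM in oeSRPK1, 0.227 and 0.287 in shSRPK1, and 0.291 and 0.212 in NT, and covers counting error only. Named by rule were the 10 receptors, SRPK1 and 2 genes most like each of 3 receptors. From each list and comparison came up to 4 called genes of smallest adjusted p. Genes mentioned outside that rule, GPC4, SDC2 and SDC4 among them, are not counted among the named genes in the alternatives. The alternatives were upper-quartile scaling, size factors of DESeq2, no filter, a filter at 5 CPM in 2 libraries, DESeq2 1.42.0, limma-voom (limma 3.58.1), only the libraries compared, a replicate block, an adjusted p under 0.01, the longest transcript as length, leaving out each library and, chosen after seeing the data, limma-voom with a weight per group. The edgeR test with its main settings was first run on simulated counts that had the same spread in every group. The other steps were not run on simulated data.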

Additional observations from a re-analysis of the deposited data

How the results depend on the processing

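Over 30 results of the receptors and 16 alternatives, 393 of 480 kept direction and side of the threshold, 49 lost a call, 26 gained one and 12 changed sign, and the 13 called results never changed sign. Receptors called in oeSRPK1 against NT, shSRPK1 against NT and oeSRPK1 against shSRPK1 were 6, 2 and 5, and 3, 0 and 3 at an adjusted p under 0.01 in edgeR. When only the libraries compared were fitted, edgeR called 9, 0 and 4 in that order. In shSRPK1 against NT, 3 then had an unadjusted edgeR p under 0.05 (DESeq2 and limma-voom called 2 each on all libraries). Leaving out each library in turn gave 1 to 9, 0 to 5 and 1 to 9. Of all tested genes 3036, 1352 and 3361 were called, with 988, 181 and 970 at an adjusted p under 0.01, 6331, 129 and 1505 when only the libraries compared were fitted, 293 to 6415, 29 to 4595 and 144 to 6152 without each library in turn, 2616 in shSRPK1 against NT with no filter, and 6226 in oeSRPK1 against NT in limma-voom with a weight per group. Leaving out a library leaves a lone one that is assumed to vary like the other groups, and the cause of these shifts was not tested. When only the libraries compared were fitted, 44 of 70 calls on the named genes of the lists held and 26 were lost. In shSRPK1 against NT, KIT and PAPPA2 were then the only named genes of the lists to keep a call. Of 70 calls on the named genes of the lists, 7, 28, 69, 70, 24 and 23 held without oeSRPK1 1, oeSRPK1 2, shSRPK1 1, shSRPK1 2, NT 1 and NT 2, and 0 changed sign.

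Sign changes were all of uncalled results. FGFR1 in shSRPK1 against NT was -0.0080 with upper-quartile scaling, IGF1R in oeSRPK1 against NT -0.0040 with upper-quartile scaling and -0.0234 with no filter, and EPHB2 in shSRPK1 against NT 0.0001 in limma-voom with a weight per group. With a library left out, the ranges were -0.0662 to 0.2425 for AXL, -0.0828 to 0.1139 for FGFR1, -0.3785 to 0.0981 for EPHA2 and -0.2264 to 0.1989 for EPHB2 in shSRPK1 against NT, -0.0879 to 0.1613 for IGF1R in oeSRPK1 against NT, and -0.0879 to 0.3819 for INSR and -0.3183 to 1.2004 for DDR2 in oeSRPK1 against shSRPK1. With longest transcripts as lengths, 7 of 10 receptors kept their place in the NT order. FGFR1, with 13842 bases of merged exons but 6216 in its longest transcript, moved above EPHA2 and MET.

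The labels number the libraries 1 and 2 in each group without saying that a number marks a shared batch, and deviations of same-numbered libraries correlated at 0.0235 (oeSRPK1 and shSRPK1), -0.0186 (oeSRPK1 and NT) and 0.0104 (shSRPK1 and NT). With a replicate block, 5, 2 and 4 receptors and 2639, 1006 and 2846 genes were called in the order above, and EPHB2 had an edgeR adjusted p of 0.0594 against NT and 0.052 against shSRPK1. The block also ended the calls of SRPK1 (0.0609) and FGFR3 (0.0634) in oeSRPK1 against shSRPK1, of EFNA1 in oeSRPK1 against NT (0.0517, and 0.0597 in DESeq2), and of EGFR (0.0524), FGFR3 (0.0583), SDC3 (0.0673), SHC1 (0.0513), SOCS3 (0.0715) and TYRO3 (0.0648) in shSRPK1 against NT, and no other call on the named genes. PDGFRA, with 15 to 96 reads per library, is the receptor that depth limits most.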

Other observations

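Of 130 tested genes over the receptors and all lists, 11 differed more than 2-fold between shSRPK1 1 and shSRPK1 2, against 2 between the oeSRPK1 libraries and 1 between the NT libraries, a count chosen after the values were seen. Beside DDR2, the fibrillar collagen gene COL3A1 had 10.1 CPM in shSRPK1 1 and 54.8 in shSRPK1 2, FGF2, a ligand of FGFR1, had 43.4 and 146, PDGFD had 112 and 259, and CBLB, a ubiquitin ligase of receptors, had 34.9 and 80.3. PDGFB, a ligand of both PDGF receptors, went the other way with 16.1 and 4.399 CPM, as did EFNA3, an ephrin, with 5.44 and 1.63. The remaining genes past 2-fold were GRB10, PAPPA, and on few reads TIE1 and MERTK. The cause was not tested.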
